A study of Mus musculus with 8 samples.

Results

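*Pax2*, *Pax8*, *Lhx1*, *Cubn* and *Lrp2* were followed across fetal mouse ovaries in which germ cells had or had not been targeted for deletion of *Bmpr1a*. They are 5 of the 25239 gene symbols in the count data and were taken by symbol, as factors and receptors of the mesonephric tubule, the transient kidney that lies against the fetal gonad. They were chosen by results of this same genotype contrast, in which *Cubn* had been seen to be lower. Their values between genotypes are therefore given as a description, with no test, and nothing is drawn from how many of them differ.

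The study asked what BMP signalling to germ cells does in the fetal ovary, by RNA-Seq of whole E14.5 ovaries. The 4 control libraries were *Bmpr1a* fl/fl, and the 4 *Bmpr1a*-cKO libraries were *Bmpr1a* fl/fl;*Oct4-Cre* Cre/WT, all on C57BL/6. Each library pooled the ovaries of 2 embryos, with 8 embryos per genotype from 6 litters in all, and the litter of each library is not given. The mothers of both genotypes were dosed on 3 days, 9.5 dpc, then 10.5 dpc, then 11.5 dpc, each time with 4-hydroxytamoxifen (1 mg) plus progesterone (0.5 mg). The controls therefore carry the floxed alleles and the drug exposure but no Cre. *Oct4* drives Cre in germ cells, so that somatic cells, and any tubule cells in the sample, keep *Bmpr1a*. The methods state that mesonephroi were removed from the right gonads taken for gene expression. Their passage on RNA-Seq, which pooled gonad pairs, does not mention this step.

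Total depth was 8562961 to 15365052 counts per library, and 3 counts corresponded to 0.195 to 0.350 CPM (counts scaled to library size). *Bmpr1a* itself ran from 199 to 237 CPM in control and from 185 to 209 CPM in cKO libraries (log2 fold change -0.16 ± 0.06, edgeR FDR = 0.0692). Counts were given per gene, so the deleted exon could not be read apart, and somatic cells contribute to the sum. Of 14249 genes tested, 10.2% were differentially expressed genes (DEGs; absolute log2 fold change above 0.5 with an FDR below 0.05, edgeR quasi-likelihood test), 4.06% lower and 6.11% higher in cKO. All 4 cKO libraries lay below all 4 control libraries for 11.7% of genes and above them for 16.1%. In whole ovaries, fewer cells of a type and less RNA per cell cannot be told apart.

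The mesonephros forms from intermediate mesoderm as a duct with tubules, and in females most of it regresses, leaving the rete ovarii and other remnants beside the ovary. PAX2 and PAX8 are paired-box transcription factors that act together in establishing the nephric lineage, and LHX1 is a LIM homeobox factor of the same lineage. Both PAX factors and LHX1 are also expressed in the Müllerian duct epithelium. CUBN (cubilin) and LRP2 (megalin) are very large endocytic receptors of absorptive epithelia, among them the proximal tubule. Cubilin takes up intrinsic factor with vitamin B12, albumin and apolipoprotein A-I. It has no transmembrane segment of its own and needs amnionless (AMN) to reach the cell surface, and megalin helps to internalise it.

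In GENCODE vM21 on mm10, *Pax2* lies at chr19:44756045-44837871 on the plus strand. *Pax8* (chr2:24420560-24475599), *Lhx1* (chr11:84518284-84525535), *Cubn* (chr2:13276338-13491813) and *Lrp2* (chr2:69424340-69586065) lie on the minus strand. Both receptor genes are built from many exons, with 66 exon blocks and 14935 exon bases in *Cubn* and 80 blocks and 16701 bases in *Lrp2*, against 5409 bases in *Pax2*, 6061 in *Pax8* and 4072 in *Lhx1*. An opposite-strand transcript shares 368 exon bases with *Cubn* and another shares 367 with *Pax8*. Whether the counting used strand is not given in the sources used here, and reads of these partners cannot be told apart from those of *Cubn* and *Pax8*.

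The receptor genes begin in sequence of very different composition, which is shown here as a description. Whether it bears on their levels in the libraries was not tested. The RefSeq promoter table (GRCm38.p6, 32841 promoters) held all 5 genes. Below are the 250 bases before the *Cubn* start (chr2:13491877-13492126, minus strand) and, before the *Lrp2* start, the 214 of its 250 bases that lie outside the annotated gene (chr2:69586066-69586279, minus strand). CG dinucleotides are in capitals.
Cubn: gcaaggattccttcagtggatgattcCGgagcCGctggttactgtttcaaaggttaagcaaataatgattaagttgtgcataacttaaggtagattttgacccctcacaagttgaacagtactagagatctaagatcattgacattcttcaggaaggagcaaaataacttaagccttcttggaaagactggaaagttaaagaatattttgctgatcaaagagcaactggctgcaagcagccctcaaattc
Lrp2: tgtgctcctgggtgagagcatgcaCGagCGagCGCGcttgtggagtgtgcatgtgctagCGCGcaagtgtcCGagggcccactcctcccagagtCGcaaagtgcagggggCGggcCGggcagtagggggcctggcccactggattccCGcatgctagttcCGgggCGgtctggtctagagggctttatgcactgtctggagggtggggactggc
The *Cubn* stretch held 2 CG dinucleotides and 39.6% G or C, a GC content at the 10.99th percentile of all promoters. The full 250 bases of *Lrp2* held 18 CG dinucleotides and 66.4% G or C, against medians of 6 and 52.4% over all promoters. *Lhx1* held 26 CG dinucleotides and 64.8% G or C, and *Pax8* held 6 and 60.4%. Short motifs were searched on both strands, namely GGCGCC and GTCTAGAC, which SMAD proteins bind, and CNCCTCAG, which STRA8 binds. They occur in 9.59%, 0.167% and 6.42% of all promoters of this length. *Cubn*, *Pax8* and *Lhx1* held none of them, *Lrp2* held GGCGCC 12 bases before its start, and the 3 *Pax2* starts held GTCTAGAC 18 bases before the first and GGCGCC 2 times before the third. These are matches of letters only.

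Among the transcription factors, *Pax8* was the most abundant. It stood at 12.9, 16.7, 14.0 and 17.7 CPM in control libraries 1 to 4 and at 17.2, 12.4, 9.63 and 12.3 CPM in cKO libraries 1 to 4. The genotypes overlapped, because cKO library 1 lay as high as the controls, while the other cKO libraries lay below all of them. The means were 15.3 ± 2.25 CPM in control and 12.9 ± 3.14 CPM in cKO (SD, n = 4), a log2 fold change of -0.27 ± 0.15 (SE).

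*Pax2* was near the lower end of what these libraries can measure, with 8 to 24 counts in each. It stood at 1.23, 1.33, 1.40 and 1.51 CPM in control and at 1.91, 1.12, 0.838 and 1.09 CPM in cKO libraries. Again cKO library 1 was the highest of all 8 and the other cKO libraries were below every control. The means were 1.37 ± 0.119 and 1.24 ± 0.464 CPM, with a log2 fold change of -0.19 ± 0.27. Counting alone gives an SD of 0.333 CPM in control and 0.334 CPM in cKO libraries at this depth, above the SD seen between controls.

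*Lhx1* had 5 to 26 counts per library. It stood at 1.32, 1.06, 2.44 and 1.07 CPM in control and at 0.596, 0.892, 0.733 and 1.09 CPM in cKO libraries. Control library 3 was the highest, and the genotypes met only where cKO library 4 passed control libraries 2 and 4. Its mean was 1.47 ± 0.653 CPM in control and 0.828 ± 0.213 CPM in cKO, a log2 fold change of -0.73 ± 0.33. Without control library 3 the fold change was -0.41, and without cKO library 4 it was -0.91.

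*Cubn* was the gene in which the libraries separated. It had 132, 165, 175 and 164 counts in control and 21, 42, 37 and 56 counts in cKO libraries. These were 10.9, 14.6, 16.4 and 10.4 CPM in control and 2.504, 3.12, 3.87 and 3.82 CPM in cKO. The highest cKO library lay well below the lowest control library. Its 95% Poisson interval reached 5.34 CPM in cKO library 3, whereas that of control library 4, the lowest control, began at 8.83 CPM, and these intervals cover counting error only. The mean was 13.1 ± 2.93 CPM in control and 3.33 ± 0.649 CPM in cKO, so that 25.5% of the control level remained. The log2 fold change was -1.94 ± 0.18, and 25 of the 14249 genes tested had a lower one. Leaving out each library in turn moved it between -2.05 and -1.82.

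*Lrp2*, whose product works with cubilin, did not follow it. *Lrp2* stood at 15.1, 11.7, 11.3 and 11.9 CPM in control and at 12.3, 10.7, 12.4 and 9.76 CPM in cKO libraries. The genotypes overlapped, and control library 1 stood above the other 7. The means were 12.5 ± 1.76 and 11.3 ± 1.26 CPM, a log2 fold change of -0.17 ± 0.12. Without control library 1 it was -0.06.

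In the fit across all genes, 1 of the 5 (*Cubn*, lower) met the DEG thresholds, beside 4.06% of all genes, and the same 1 gene had all cKO libraries below the controls, beside 11.7% of all genes. Since the genes were selected on this contrast, these counts are no test of them and nothing is read from them. The plot of CPM by library shows the separation of *Cubn* and the overlap of the others.

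**Figure D1:**
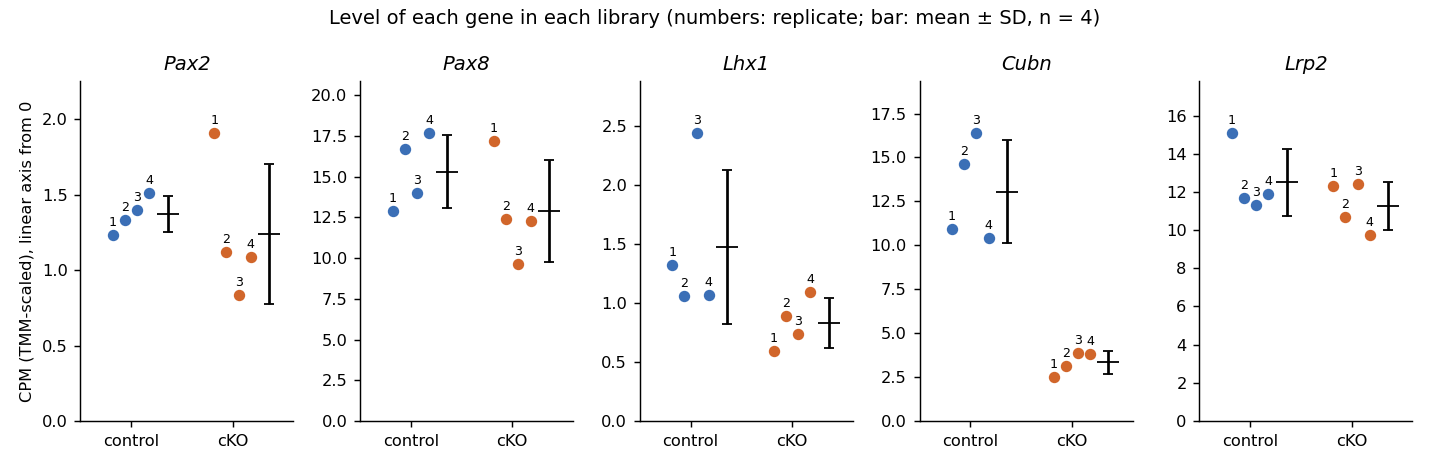
CPM (TMM-scaled, linear axis from 0, a separate scale for each gene) of *Pax2*, *Pax8*, *Lhx1*, *Cubn* and *Lrp2* in the 4 control (blue) and 4 *Bmpr1a*-cKO (orange) libraries, numbered by replicate, with the mean ± SD of each genotype in black. *Cubn* lay between 10.4 and 16.4 CPM in control and between 2.504 and 3.87 CPM in cKO libraries, while in the other 4 genes the genotypes overlapped.

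Levels of different genes were compared per kilobase of exon. In control libraries the order was *Pax8* (2.53 ± 0.372 CPM per kb), *Cubn* (0.874 ± 0.196), *Lrp2* (0.750 ± 0.105), *Lhx1* (0.361 ± 0.160) and *Pax2* (0.253 ± 0.0220). *Cubn* and *Lrp2* overlapped, as did *Lhx1* and *Pax2*. In cKO libraries the order was *Pax8* (2.12 ± 0.518), *Lrp2* (0.675 ± 0.0757), *Pax2* (0.229 ± 0.0857), *Cubn* (0.223 ± 0.0434) and *Lhx1* (0.203 ± 0.0524), the last 3 of which overlapped. *Cubn* thus stood beside *Lrp2* in control ovaries and beside the scarce factors in cKO ovaries. All 5 genes were of low abundance, since their control levels per kilobase ranked at percentiles 27.9 (*Pax8*), 13.1 (*Cubn*), 11.4 (*Lrp2*), 4.86 (*Lhx1*) and 2.78 (*Pax2*) of the 13963 tested genes with a known length.

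Within a library the ratio of *Cubn* to *Lrp2*, per kilobase, does not depend on the scaling of that library. It was 0.802, 1.40, 1.62 and 0.970 in control and 0.228, 0.326, 0.351 and 0.438 in cKO libraries, with no overlap. *Pax8* over *Pax2* was 9.97 ± 1.07 in control and 9.57 ± 1.03 in cKO libraries, and its range was 8.03 to 11.2 over all 8. The ratio of the PAX factors thus varied little between libraries although cKO library 1 was high in both. Counting alone gives *Pax2* an SD of 0.333 CPM on its control mean of 1.37 CPM. The spread of the ratio is smaller than that in proportion, so nothing is read from it. *Lrp2* over *Pax8* was 0.305 ± 0.0834 and 0.332 ± 0.0919.

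The library-to-library pattern of *Pax2* and *Pax8* was alike in the cKO libraries. Relative to the cKO mean of log2 CPM, *Pax2* was 0.62 higher in library 1 and fell by 0.43 in library 3, and the corresponding deviations of *Pax8* were 0.44 and -0.38. Over all 8 libraries, after each gene was centred on its own mean, their log2 CPM differed by a root mean square of 0.13, and only 3 of 14248 genes were closer to *Pax2* than *Pax8* was. *Cubn* and *Lrp2* differed by 0.95, a distance that includes the fall for which *Cubn* was chosen. These are distances over 8 points that share library, depth and genotype, and are given as a description. *Pax2* had only 8 to 24 counts per library, so counting error is not small beside its deviations. Its small distance to *Pax8* is therefore not read as shared behaviour.

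**Figure D2:**
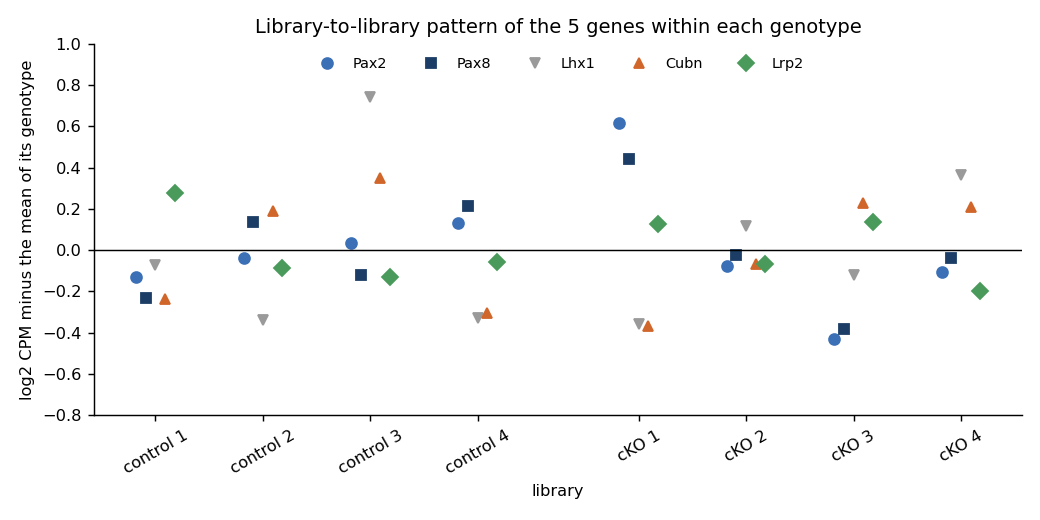
Deviation of log2 CPM from the mean of the gene's own genotype (vertical axis) in each of the 8 libraries (horizontal axis), with 1 symbol per gene. *Pax2* and *Pax8* were both highest in cKO library 1 (0.62 and 0.44) and lowest in cKO library 3 (-0.43 and -0.38), and *Cubn* was low in cKO library 1 (-0.37).

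By the same distance, the genes most like *Cubn* were *Dlx3* (0.17), *Gata2* (0.22) and *Msx2* (0.23). This distance spans both genotypes, so genes with a like fall lie near *Cubn*, which was chosen for its fall. The log2 fold changes of *Dlx3*, *Gata2* and *Msx2* were -2.03, -1.71 and -1.81, beside -1.94 for *Cubn*. Nothing is read from their nearness. *Dlx3* and *Msx2* encode homeobox factors and *Gata2* a zinc finger factor. *Dlx3* went from 15.8 ± 3.91 to 3.85 ± 0.722 CPM, *Gata2* from 64.7 ± 9.93 to 19.7 ± 1.69 CPM and *Msx2* from 17.8 ± 1.49 to 5.06 ± 0.794 CPM. The genes most like *Pax2* were *Fam13a* (0.09), *Nmnat1* (0.11) and *Vwce* (0.13), and those most like *Pax8* were *Kcnk2* (0.07), *Vwce* (0.10) and *Hacd1* (0.10). The nearest to *Lhx1* were *3830403N18Rik* (0.21), *Susd4* (0.21) and *Eda* (0.21), and the nearest to *Lrp2* were *Gucd1* (0.05), *Arhgap22* (0.06) and *Unc45a* (0.06). *Vwce* was the only gene named for more than 1 of the 5. With a prior count of 0.5 in place of 2, 1 of the 3 neighbours of *Lhx1* and 2 of the 3 of *Pax2* stayed among the nearest 3, while all 3 did so for *Pax8*, *Cubn* and *Lrp2*.

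Of 12 listed genes that work with cubilin and megalin, 11 were tested, and 1 was a DEG, beside 10.2% of all genes, so their count was near that of all genes. This was *Lrpap1*, which encodes the chaperone that protects LDL receptor family proteins during folding. It fell from 64.1 ± 3.96 to 44.9 ± 3.74 CPM (log2 fold change -0.52 ± 0.07, edgeR FDR = 0.000101), with no overlap between genotypes. It passed the fold threshold narrowly, with values of -0.48 without control library 3, -0.47 without cKO library 2 and -0.499 without cKO library 3, all under 0.5 in size.

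The other partners tested did not pass both thresholds. *Dab2*, the endocytic adaptor that binds both receptors, was at 55.8 ± 6.99 and 53.6 ± 1.77 CPM (log2 fold change -0.06, edgeR FDR = 0.634). Clathrin heavy chain *Cltc*, clathrin adaptor subunit *Ap2m1* and the sorting nexin *Snx17* had log2 fold changes of 0.12, 0.00 and -0.02. The median over the tested partners was 0.00, beside 0.00 over all genes tested. *Amn*, whose product cubilin needs at the surface, had at most 15 counts in a library and was too low to be tested. Its mean was 0.732 ± 0.147 CPM in control and 0.927 ± 0.281 CPM in cKO.

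Of 12 tested relatives of *Lrp2* in the LDL receptor family, 0 were DEGs lower in cKO (4.06% of all genes) and 1 was higher (6.11% of all genes). *Lrp11* rose from 5.63 ± 0.993 to 11.2 ± 1.23 CPM (log2 fold change 1.01 ± 0.14, edgeR FDR = 8.46e-05). The most abundant relatives, *Lrp1*, *Lrp6* and *Lrp5*, had log2 fold changes of -0.17, 0.06 and 0.00.

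Of the 10 tested genes of the vitamin B12 route 0 were DEGs by the edgeR test and fold threshold, beside 10.2% of all genes, and DESeq2 and limma-voom also called 0. An unadjusted p below 0.05 was reached by 7. The share of all genes at that level was not computed, so nothing is read from that count. Without the fold threshold, an FDR below 0.05 was reached by 4, beside 4242 of all 14249 genes. *Cblif*, which encodes intrinsic factor, the B12 carrier that cubilin binds, had 0 counts in every library. *Cd320*, the receptor for B12 on transcobalamin used by most cells, was at 46.6 ± 5.002 and 39.7 ± 1.66 CPM (log2 fold change -0.23, edgeR FDR = 0.0441, under the fold threshold). *Mtr*, the B12-dependent methionine synthase, and *Mmadhc*, which directs B12 within the cell, had log2 fold changes of -0.09 and -0.01. The other 3 genes with an FDR below 0.05 were higher in cKO, all under the fold threshold. In each, all cKO libraries lay above all controls, as in 16.1% of all genes. *Abcd4*, which moves B12 out of the lysosome, had a log2 fold change of 0.45 (edgeR FDR = 0.00251). *Mmachc*, which processes B12 in the cytosol, had 0.42 (FDR = 0.00467), and *Mtrr*, which reactivates methionine synthase, had 0.31 (FDR = 0.00371).

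**Figure D3:**
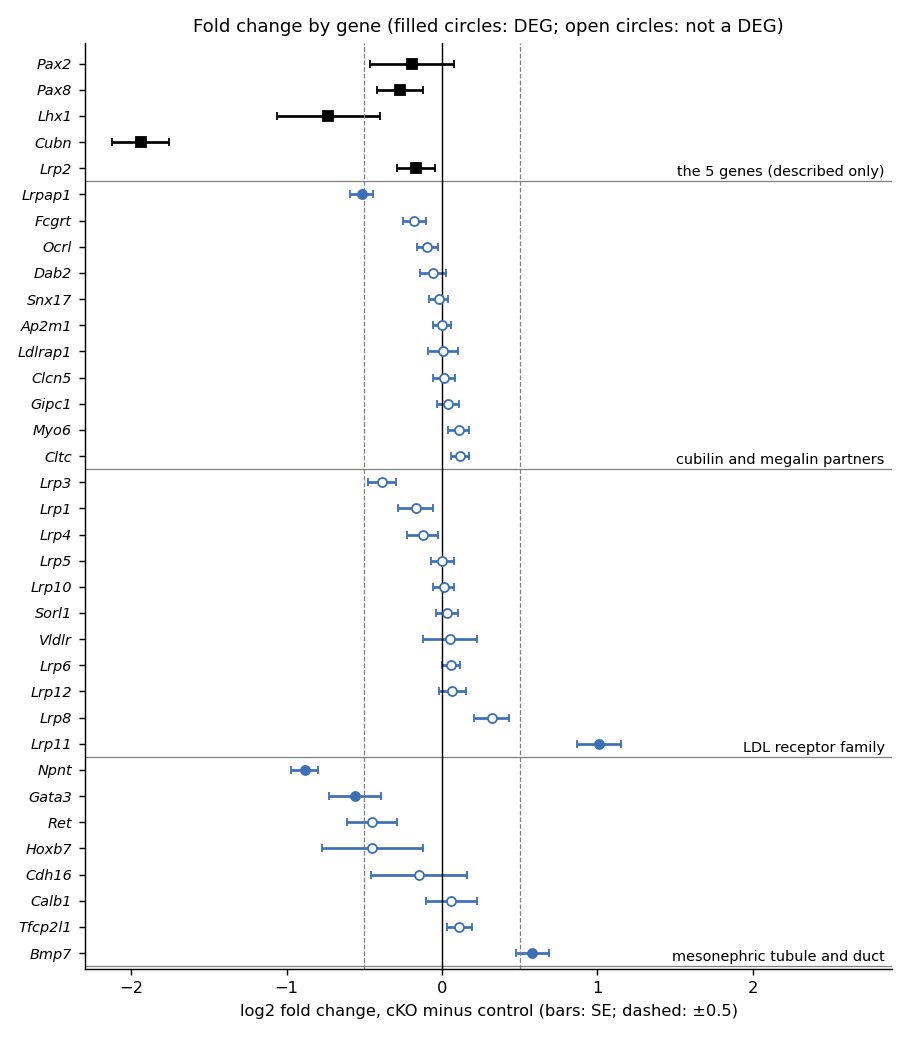
Log2 fold change (cKO minus control, horizontal axis, with its SE) of the 5 genes (black squares, described with no test) and of tested genes of 3 lists, with filled circles for DEGs and dashed lines at 0.5 and -0.5. *Cubn* at -1.94 lay apart from its partners, of which *Lrpap1* (-0.52) was the only DEG among the 11 tested. *Cubn* was chosen for its fall and the partners were not, so nothing is read from this gap.

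The tissue label was read against a list of 16 mesonephric tubule and duct genes that left out the 5. Only 8 of them were high enough to be tested. Several factors that define the tubule and duct epithelium were at or near 0, with at most 4 counts in a library for *Hnf4a*, at most 2 for *Wnt9b*, the duct signal that induces tubules, and at most 1 for *Sim1* and *Tfap2b*. *Cdh16*, the cadherin of kidney and duct epithelium, was at 1.17 ± 0.168 and 1.07 ± 0.454 CPM. The summed CPM of the list was 182 to 200.2 in control and 158 to 176 in cKO libraries, and the 8 genes too low to test gave 0.740 to 1.68 of it in control. How much adhering mesonephric tissue contributed to the reads of the 5 genes was not tested.

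Of the 8 tested, 2 were DEGs lower in cKO (4.06% of all genes) and 1 was higher (6.11% of all genes). *Npnt*, which encodes the matrix protein nephronectin, fell from 66.3 ± 7.87 to 35.8 ± 2.30 CPM (log2 fold change -0.88 ± 0.09, edgeR FDR = 2.92e-06). *Gata3*, a factor of the nephric duct, fell from 6.68 ± 1.13 to 4.49 ± 0.686 CPM (log2 fold change -0.56, edgeR FDR = 0.0192), with overlapping libraries, and its FDR was 0.0515 without control library 3, 0.0543 without cKO library 2 and 0.0504 without cKO library 4. *Bmp7*, a BMP ligand, rose from 23.9 ± 2.03 to 35.4 ± 5.48 CPM (log2 fold change 0.58, edgeR FDR = 0.000734). *Tfcp2l1* and *Calb1*, the other abundant genes of the list, had log2 fold changes of 0.11 and 0.06. The median over the 8 was -0.30.

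Several transporters of the proximal tubule, where cubilin and megalin are most abundant in the kidney, were at or near 0. *Slc34a1*, *Slc22a6* and *Slc5a12* had at most 1 count in a library, *Slc6a19* at most 2, and 6 of 12 listed genes were tested. The transporters *Slc7a9* and *Slc3a1* were detected in every library and were not DEGs. *Slc7a9* was at 2.504 ± 0.451 CPM in control and 2.425 ± 0.408 CPM in cKO (log2 fold change -0.03). *Slc3a1* was at 1.106 ± 0.341 and 1.097 ± 0.233 CPM (log2 fold change -0.04). *Ggt1*, a membrane gamma-glutamyltransferase, rose from 0.998 ± 0.281 to 7.79 ± 1.49 CPM (log2 fold change 2.99 ± 0.22, edgeR FDR = 2.55e-07). The membrane peptidases *Anpep* and *Mme* and the water channel *Aqp1* were the most abundant of this list and were not DEGs, with log2 fold changes of -0.48, -0.17 and -0.11. *Anpep* missed only the fold threshold (edgeR FDR = 0.000192), and all its cKO libraries lay below all controls, as in 11.7% of all genes.

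**Figure D4:**
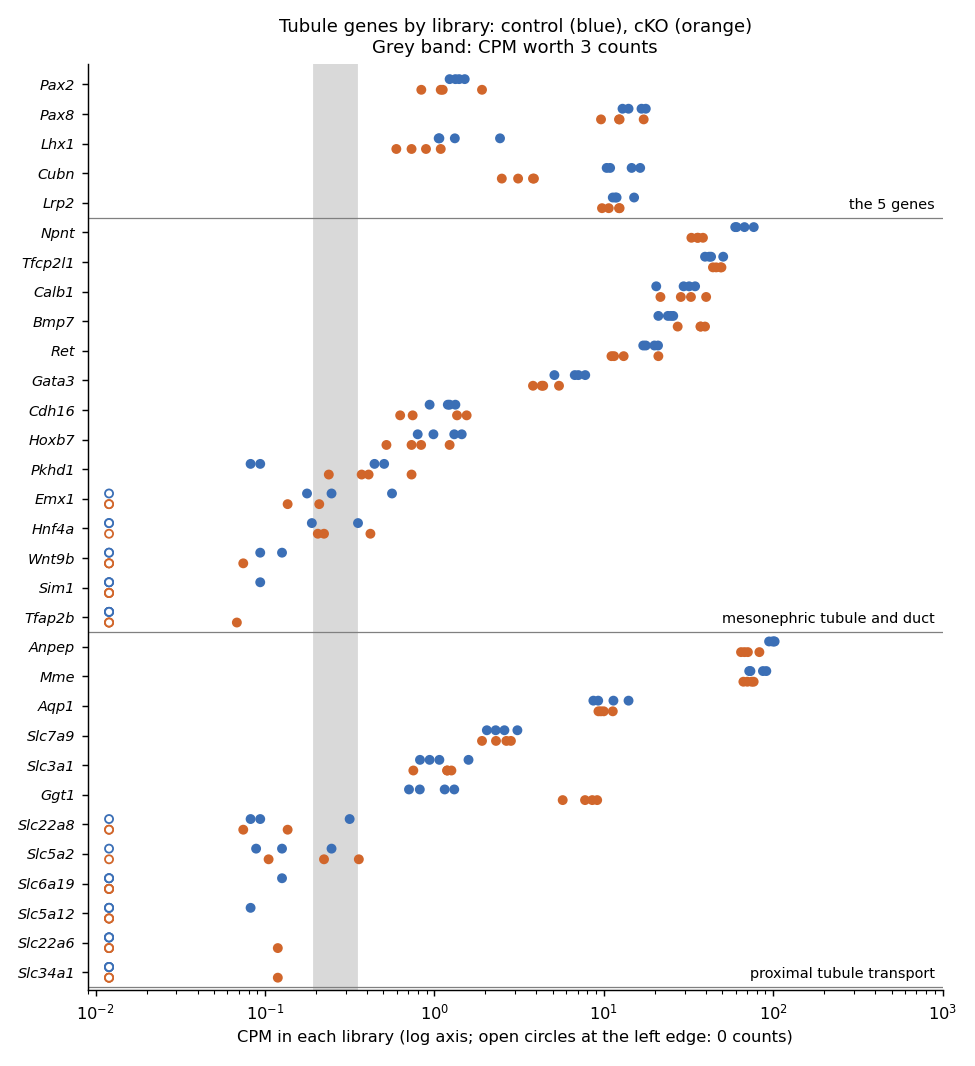
CPM in each library (horizontal log axis, open circles at the left edge for 0 counts) of the 5 genes, 14 of the mesonephric tubule and duct genes and 12 proximal tubule genes, control in blue and cKO in orange, with a grey band at the CPM worth 3 counts (0.195 to 0.350). *Wnt9b*, *Sim1*, *Tfap2b* and the solute carriers *Slc34a1* and *Slc22a6* lay below the band, whereas *Cubn*, *Lrp2* and *Pax8* lay above it in every library.

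Markers of other tissues beside the ovary were mostly low. Of 9 metanephric kidney genes, 2 were tested and 1 was a DEG, lower in cKO, beside 4.06% of all genes. *Six2*, a factor of nephron progenitors, was lower in cKO (1.43 ± 0.735 to 0.627 ± 0.428 CPM, edgeR FDR = 0.0465), a call lost without control library 1, 3 or 4 and without cKO library 1, 2 or 4 (FDR 0.0525 to 0.158), and with DESeq2 (FDR 0.055). *Itga8* was level (log2 fold change 0.03), *Umod* and *Slc12a1* had at most 1 count, and *Eya4* had at most 16. Of 8 Müllerian duct genes 3 were tested and 0 were DEGs by edgeR, beside 10.2% of all genes, with 1 at an unadjusted p below 0.05. This was *Amhr2*, the anti-Müllerian hormone receptor, which gonadal cells also express, at 190.5 ± 9.42 and 159 ± 15.7 CPM. Its log2 fold change of -0.26 was under the fold threshold (edgeR FDR = 0.0112). *Hoxa9* and *Hoxa10* stayed near 1 to 2 CPM. Of 7 adrenal genes 3 were tested, and 1 was a DEG, lower in cKO, beside 4.06% of all genes. This was *Hsd3b1*, a steroidogenic enzyme (35.4 ± 2.94 to 23.1 ± 7.39 CPM, edgeR FDR = 0.00561). Its log2 fold change was -0.63, and -0.49 without cKO library 3. *Star* and *Cyp11a1*, which act earlier in steroid synthesis, had log2 fold changes of 0.01 and -0.50 and were not DEGs.

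Genes of intermediate mesoderm that the gonad also uses were abundant. The most abundant were *Wt1* (362 ± 18.5 CPM in control), *Gata4* (315 ± 16.3) and *Wnt4* (212 ± 12.01). Their log2 fold changes were -0.20, -0.18 and -0.35 (edgeR FDR = 0.0386, 0.0901 and 0.0104), all under the fold threshold. Of 9 tested, 1 was a DEG, beside 10.2% of all genes. It was *Sall1*, which rose from 5.74 ± 1.02 to 8.34 ± 1.20 CPM (log2 fold change 0.53, edgeR FDR = 0.0193). This call was lost without control library 1 or 3 and without cKO library 3 or 4 (FDR 0.0558, 0.0567, 0.057 and 0.065). Of the 9, 7 were lower in cKO, and 3 had all cKO libraries below all controls, beside 11.7% of all genes. Without the fold threshold, 6 had an edgeR FDR below 0.05, beside 4242 of all 14249 genes. The median over the 9 was -0.20.

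In the PAX and LIM homeobox families, *Pax4*, *Pax9* and *Lhx5* had 0 counts in every library, and 8 of the 20 listed genes were tested. Of these 8, 1 was a DEG higher in cKO (6.11% of all genes) and 1 was lower (4.06% of all genes). *Lmx1b* rose from 2.02 ± 0.682 to 15.9 ± 2.13 CPM (log2 fold change 3.01 ± 0.18, edgeR FDR = 3.46e-08). *Lhx2* was lower (4.25 ± 0.649 to 2.60 ± 0.726 CPM, edgeR FDR = 0.0248), a call lost without control library 1 or 3 and without cKO library 2 or 3 (FDR 0.0548 to 0.074). *Lhx9*, a factor of the gonadal ridge, was at 139 CPM in both genotypes (log2 fold change -0.00), and the LIM-binding cofactors *Ldb1* and *Ldb2* had log2 fold changes of -0.20 and -0.31.

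Germ cell and pregranulosa markers differed between libraries, and they moved with some of the 5 genes. The summed CPM of 6 germ cell genes was 569, 665, 755 and 569.6 in control and 616, 843.5, 851 and 979 in cKO libraries. That of 6 pregranulosa genes was 1348, 1466, 1214.5 and 1356 in control and 1234, 1133, 1030 and 1079 in cKO libraries. Germ cell genes were thus lowest in cKO library 1 among the cKO libraries, where pregranulosa genes, *Pax2* and *Pax8* were highest.

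In control libraries *Cubn* had the order of the germ cell sum for libraries 3 and 2, which led in both, while libraries 1 and 4 were nearly equal in both. In cKO libraries library 1 was lowest in both, but libraries 2 and 3 had nearly equal sums with 3.12 and 3.87 CPM of *Cubn*, and library 4, with the highest sum, had 3.82 CPM. Divided by the germ cell sum, *Cubn* was 0.0191, 0.0220, 0.0217 and 0.0182 in control and 0.00407, 0.00370, 0.00455 and 0.00390 in cKO libraries. Its coefficient of variation went from 22.4% to 9.41% in control and from 19.5% to 8.91% in cKO libraries. It stayed under 50% of its value for CPM in both genotypes, which was so for 0.295% of the 14249 genes. Divided by *Ddx4* alone, *Cubn* met this 50% line in control but not in cKO libraries. Divided by the pregranulosa sum, its coefficient of variation was 27.3% in control and 26.1% in cKO. The division by the germ cell sum and the 50% line were chosen after the values were seen. The share of genes is therefore no test, and these values are a description of 4 libraries per genotype.

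Relative to germ cell genes, *Cubn* was 4.99-fold lower in cKO. The germ cell list itself changed. Of its 6 genes, 2 were DEGs higher in cKO (6.11% of all genes) and 2 were lower (4.06% of all genes). *Dazl* (327 ± 45.3 to 506 ± 95.1 CPM) and *Dnd1* (21.5 ± 6.58 to 36.3 ± 3.45 CPM) were higher (edgeR FDR = 0.00101 and 0.00151). *Mael* (66.2 ± 8.97 to 37.7 ± 9.04 CPM) and *Tdrd9* (8.33 ± 0.717 to 5.45 ± 0.817 CPM) were lower (edgeR FDR = 0.000507 and 0.00316). *Ddx4*, the germ cell helicase, was at 142 ± 21.9 and 153 ± 32.3 CPM (edgeR FDR = 0.561), and *Piwil2*, a germ cell Argonaute, at 75.1 ± 9.84 and 84.2 ± 14.1 CPM. Per *Ddx4* the coefficient of variation of *Cubn* was 7.36% in control and 11.5% in cKO, and *Cubn* was 4.15-fold lower. *Lhx1* also varied less per germ cell list (44.4% to 31.5% in control, 25.8% to 11.1% in cKO), and its genotypes did not overlap on that scale, as in 1714 of the 14249 genes with all cKO libraries below. Per pregranulosa list *Lhx1* overlapped and varied more (53.1% in control, 29.1% in cKO). *Lhx1* had 5 to 16 counts in cKO libraries, where counting alone gives an SD of 0.269 CPM on a mean of 0.828 CPM. Its cKO variations on all these scales are smaller than that in proportion, so nothing is read from their differences.

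*Pax8* behaved in the opposite way. Per germ cell list its variation rose from 14.7% to 21.5% in control and from 24.4% to 46.0% in cKO libraries. Per pregranulosa list it fell to 12.4% and 16.6%, a decrease in both genotypes that 8.37% of all genes showed, and its level was 0.0114 of the list in both genotypes. All 6 genes of that list were lower in cKO, with a median log2 fold change of -0.40. Of the 6, 1 was a DEG, beside 4.06% of all genes. Without the fold threshold, 5 had an edgeR FDR below 0.05, beside 4242 of all 14249 genes. The equal share thus goes with lower means of both *Pax8* and the list. *Pax2* and *Lrp2* varied more per germ cell list in both genotypes (16.1% and 60.7% for *Pax2*, 24.9% and 29.5% for *Lrp2*). *Lrp2* varied more per pregranulosa list too (14.8% and 12.9%). The pregranulosa list included *Foxl2*, the ovarian somatic cell factor, which was lower in cKO (118 ± 3.93 to 79.4 ± 7.30 CPM, edgeR FDR = 1.8e-05), and *Kitl*, which encodes the ligand of KIT, at 634 ± 85.1 and 581 ± 33.9 CPM. *Fst*, which encodes follistatin, had a log2 fold change of -0.31 (edgeR FDR = 0.00359, under the fold threshold). What part the germ cell or pregranulosa share had in the level of any of the 5 genes was not tested.

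**Figure D5:**
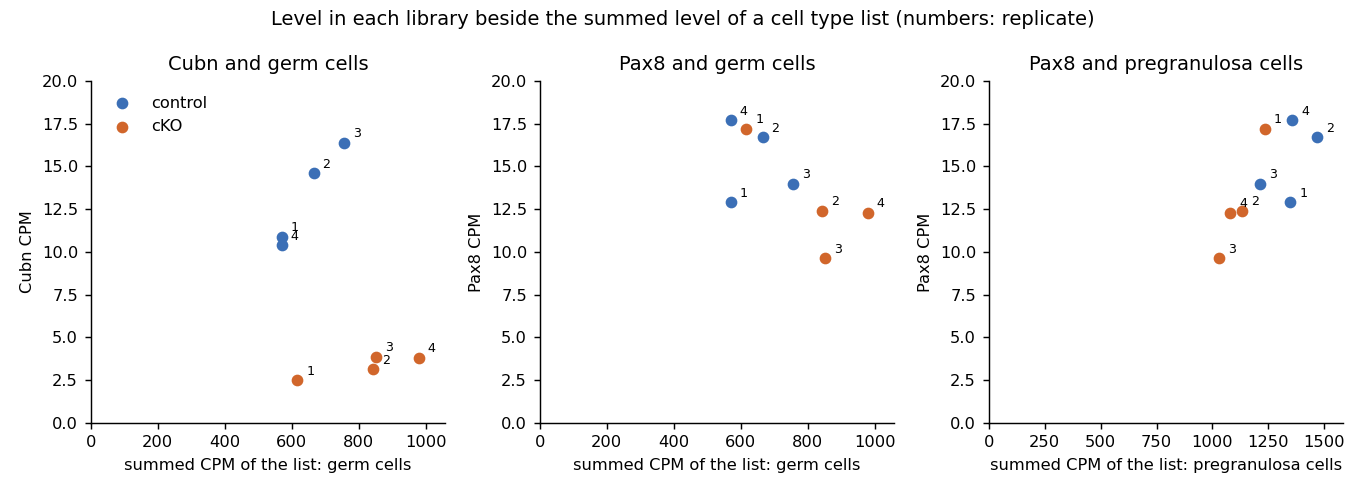
Level of *Cubn* or *Pax8* (CPM, vertical axis) against the summed CPM of the germ cell or pregranulosa list (horizontal axis), 1 point per library, numbered by replicate, control in blue and cKO in orange, all axes from 0. *Cubn* was highest in control libraries 3 and 2, which had the highest germ cell sums among controls (755 and 665), and all cKO libraries lay at 2.504 to 3.87 CPM at germ cell sums of 616 to 979.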

How the data were processed

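RNA-Seq was measured in 4 control and 4 *Bmpr1a*-cKO libraries, each of the pooled ovaries of 2 embryos. Per the labels and methods, the authors trimmed reads with Trimmomatic 0.39, checked them with FastQC 0.11.9, mapped them with STAR 2.5.2 to mm10 and deposited whole-number counts per gene symbol, not normalized. Annotation and strand setting of the counting are not given in the sources used here. The authors also deposited a signal table of CPM for 14244 genes, whose columns summed to 969246 to 1026078. Its genes were tried as a filter, and its values as other levels of the 5 genes.

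Counts of all 25239 symbols were analysed in R 4.3.3 with edgeR 4.0.16 (filterByExpr, TMM, quasi-likelihood F test, two-sided, Benjamini-Hochberg adjustment over 14249 genes). CPM are scaled by TMM and given as mean ± SD over 4 libraries, and log2 fold changes are given with their SE. Library-level log2 CPM carried a prior count of 2. A DEG had an absolute log2 fold change above 0.5 and an FDR below 0.05, the thresholds of the study's methods. On simulated data with 200 of 14249 genes changed by a log2 of 2, 200 were called, with 3 false calls. The changed genes were drawn from those above a floor of mean count. Changes near a log2 of 0.5 and genes at few counts were thus not tried.

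The 5 genes, the 12 context lists and the tests were chosen with earlier results of these data known. Named genes are the 5, every DEG and the 3 most abundant control genes of each list, the 3 genes nearest to each of the 5 in pattern, and *Bmpr1a*. List genes given by name outside this rule (*Amn*, *Dab2*, *Cblif*, *Abcd4*, *Mmachc*, *Mtrr*, *Cdh16*, *Slc7a9*, *Slc3a1* and those at a few counts) were chosen after their values were seen. Some genes of the lists are not reported here by name. Exon lengths came from GENCODE vM21 and promoters from RefSeq on GRCm38.p6. Depth was 8562961 to 15365052 counts, and Poisson intervals cover counting error only.

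Alternatives were scaling by RLE, by the upper quartile, by library size or by germ cell markers, no filter or one of CPM over 1 in 4 or more libraries, the likelihood ratio test of edgeR, DESeq2 1.42.0, limma-voom 3.58.1, the replicate number as a block, no fold threshold and each library left out. The division by a cell type list was added after the data were seen.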

Additional observations from a re-analysis of the deposited data

Results flagged for a closer look

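Of 74 sets of 4 libraries, 4 had a library that stood far from the others of its genotype, and chance alone marks about 1 in 20. *Lrp2* was highest in control library 1, at 15.13 CPM against a control median of 11.81. *Sall1* was lowest in cKO library 2, at 6.544 CPM against a median of 8.913. The summed CPM of the mesonephric tubule and duct list was lowest in cKO library 3, at 157.8 against a median of 174.8, and *Pax2* and *Pax8* were lowest of the cKO libraries there too. The summed CPM of the vitamin B12 list was lowest in control library 3, at 455.9 against a median of 470.2.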

How the results depend on the processing

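The 5 genes had negative log2 fold changes in 19 of 19 alternative fits. These fits reuse the same libraries, so nothing is read from the shared sign. Without 1 library each, the log2 fold changes ran from -2.05 to -1.82 for *Cubn* and -0.91 to -0.41 for *Lhx1*. They ran from -0.41 to -0.16 for *Pax8*, -0.41 to -0.07 for *Pax2* and -0.21 to -0.06 for *Lrp2*. Germ cell marker scaling, which divides by genes that are themselves higher in cKO on balance, moved the median of all genes from -0.00 to -0.36. It gave -2.32 for *Cubn*, -0.58 for *Pax8*, -0.56 for *Pax2* and -0.51 for *Lrp2*. Relative to that median the values were -1.97, -0.23, -0.20 and -0.16, and -0.78 for *Lhx1*.

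The number of DEGs was 1449, with 3380 under germ cell marker scaling and 4242 with no fold threshold. The share of DEGs that were higher was 60.1%, against 9.73% with germ cell marker scaling, 53.7% with upper-quartile and 50.8% with library size scaling. Under germ cell marker scaling the DEGs were 2 for the partners (1 otherwise), 2 for the LDL receptor family (1), 4 for the B12 route (0) and 6 for intermediate mesoderm (1). *Bmp7* then had 0.19 (FDR 0.422). With no fold threshold they were 4, 4 and 6 for the LDL receptor family, the B12 route and intermediate mesoderm. The intermediate mesoderm count was 0 with upper-quartile or library size scaling, since *Sall1* fell under the fold threshold. Without 1 library each, the counts ran from 0 to 1 for the partners, 1 to 2 for the LDL receptor family and 0 to 1 for intermediate mesoderm. The cause of these changes was not tested.

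The labels do not say what a replicate number marks. The deviations of same-numbered libraries correlated at 0.198, 0.161, 0.108 and -0.0871, so that 3 of 4 pairs passed 0.1, and cKO libraries 1, 2 and 3, but not 4, correlated best with their own number. As not every pair passed, the numbers were not taken as a pairing. With the replicate block, log2 fold changes were -1.93 for *Cubn*, -0.70 for *Lhx1*, -0.28 for *Pax8*, -0.19 for *Pax2* and -0.16 for *Lrp2*, and 1457 genes were DEGs. Depth limits *Pax2* and *Lhx1* (5 to 26 counts) and every tubule factor near 3 counts.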
